A study of Mus musculus with 8 samples.

Results

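The genes described here are 7 receptors that guide inflammatory leukocytes: Cxcr3, Cxcr4, Cxcr5, Cxcr6, Ccr1, Ccr2 and Ltb4r1. They were chosen by name and all 7 were found, among 54185 genes that could be joined across 8 RNA-seq libraries of mouse CD4+ T cells. By its title the series asked about RORα, the nuclear receptor encoded by Rora, in colitis driven by T cells. The 8 libraries fall into 6 groups. In colon, there were 2 libraries of cells from Cd4_cre Rora fl/fl mice (KO) and 2 of cells from Rora fl/fl mice (WT), which carry the floxed alleles without Cre. For these, naive donor T cells spent 6 weeks in Tcrbd-/- recipients before colonic CD4+ T cells were collected. The 4 cultured groups had 1 library each: KO and WT cells grown with IL-23, IL-1β and IL-6, and KO and WT cells grown with TGF-β and IL-6. These Th17 cultures were started from naive cells on plates coated with antibodies to CD3 and CD28 and ran for 4 days. Every library, WT ones included, was stimulated for 2 hours with PMA and ionomycin, a drug pair that activates T cells. Cd4-driven Cre acts during T cell development, so the gene was already lost in the donor cells. Tcrbd-/- mice lack T cells of their own but keep B cells, myeloid cells and stroma. No label says whether the 2 colon libraries of a group came from separate mice, so a p-value measures only how far these libraries spread, and that spread may be technical.

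Chemokine receptors are seven-helix membrane proteins that signal through Gi proteins and steer cells along gradients of small secreted chemokines. CXCR3 binds CXCL9, CXCL10 and CXCL11 and marks Th1-type effector cells, and CXCR6 binds CXCL16 and marks effector cells that stay in tissue. CCR1 and CCR2 bind inflammatory CC chemokines, are prominent on monocytes and also occur on effector T cells. CXCR5 binds CXCL13 and leads follicular helper cells to B cell follicles, CXCR4 binds CXCL12, and Ltb4r1 encodes BLT1, the high-affinity receptor for the lipid leukotriene B4.

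In build mm10 and the GENCODE M21 annotation, Cxcr6 (chr9:123806475-123811760, plus strand), Ccr1 (chr9:123962124-123968692, minus strand) and Ccr2 (chr9:124101950-124113557, plus strand) lie in the chemokine receptor cluster of chromosome 9. Cxcr5 (chr9:44511787-44561877, minus strand) is far from it on the same chromosome. Cxcr3 (chrX:101731535-101734269, minus strand), Cxcr4 (chr1:128588199-128592293, minus strand) and Ltb4r1 (chr14:55765962-55768494, plus strand) lie elsewhere. Values are counts over whole genes. Cxcr6 sits inside the span of Fyco1, which is on the other strand, and shares no exon base with it. Cxcr5 shares 110 exon bases with Bcl9l. The strand setting of the counting was not given, so reads from those bases could be assigned to either gene. Chemokine receptor genes are paralogs, and reads from similar stretches may be split between them, so the value of Ccr2 is uncertain to that extent.

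Promoter windows of RefSeq, on GRCm38.p6, cover 250 bases before and 50 after a gene's RefSeq start and were given for 6 of the 7 genes. Cxcr5 had none. The windows below, 5′ to 3′ on the gene's strand, belong to the pair of receptor genes that was lowest in KO colon relative to WT colon (Cxcr3, Ltb4r1), the one with the largest increase (Ccr1), and the most abundant one (Cxcr6). Capitals mark TGTGGT, the core letters bound by RUNX factors, or its reverse complement ACCACA.
Cxcr3 (chrX:101734098-101734397, minus strand): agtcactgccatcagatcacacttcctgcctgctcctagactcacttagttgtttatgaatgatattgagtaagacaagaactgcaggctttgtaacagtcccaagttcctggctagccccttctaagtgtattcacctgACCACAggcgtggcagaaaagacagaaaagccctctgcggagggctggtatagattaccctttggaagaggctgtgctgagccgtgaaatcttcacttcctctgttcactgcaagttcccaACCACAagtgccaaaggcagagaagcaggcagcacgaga
Ltb4r1 (chr14:55765712-55766011, plus strand): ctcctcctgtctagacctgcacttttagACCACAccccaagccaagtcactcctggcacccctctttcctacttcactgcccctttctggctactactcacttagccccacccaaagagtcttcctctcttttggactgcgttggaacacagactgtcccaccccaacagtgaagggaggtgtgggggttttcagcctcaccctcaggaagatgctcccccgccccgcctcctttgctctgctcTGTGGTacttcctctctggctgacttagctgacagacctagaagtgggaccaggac
Ccr1 (chr9:123968643-123968942, minus strand): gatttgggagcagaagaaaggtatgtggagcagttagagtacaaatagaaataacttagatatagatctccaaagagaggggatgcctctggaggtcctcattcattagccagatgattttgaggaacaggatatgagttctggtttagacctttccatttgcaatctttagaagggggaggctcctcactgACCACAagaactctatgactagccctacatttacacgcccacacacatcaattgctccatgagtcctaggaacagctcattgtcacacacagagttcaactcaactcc
Cxcr6 (chr9:123806227-123806526, plus strand): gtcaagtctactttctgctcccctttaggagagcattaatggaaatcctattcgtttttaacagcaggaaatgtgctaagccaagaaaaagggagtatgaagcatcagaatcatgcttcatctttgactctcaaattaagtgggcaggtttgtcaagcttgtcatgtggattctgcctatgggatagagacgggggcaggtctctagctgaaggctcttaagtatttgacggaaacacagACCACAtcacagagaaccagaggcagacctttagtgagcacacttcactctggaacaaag
TGTGGT was searched on both strands and was found in 4 of the 6 windows, against 16.8% of 32851 promoter windows. This motif was added after the windows had been read, so its share beside that of all windows is a description and not a test. Cxcr4 and Ccr2, whose windows are not printed, had no match. TGTGGT lay at -110 and 11 in Cxcr3, counted from the gene's RefSeq start, at -222 and -6 in Ltb4r1, at -58 in Ccr1 and at -10 in Cxcr6. In GENCODE M21, Cxcr3 starts further upstream, at 101734269 on the minus strand, so the match at -110 lies inside that annotated gene. AGGTCA, the core letters bound by ROR proteins, was in none of the 6 windows, against 16.3% of all windows. The T-box letters GGTGTGA (3.98% of all windows) and the AP-1 letters TGANTCA (7.81%) were likewise in none. A match or its lack describes these 300 bases alone.

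Library totals ran from 13176752 to 15922696 counts. Levels are given as CPM, counts scaled to a common library size, with edgeR's TMM method over all 8 libraries. Rora itself, which checks the labels, had 147 and 164 CPM in KO colon, against 279 and 322 CPM in WT colon. In culture it had 53.9 CPM in KO and 139 CPM in WT cells with IL-23, IL-1β and IL-6, and 173 CPM in KO and 456 CPM in WT cells with TGF-β and IL-6. It was thus lower in the KO library or libraries of each setting, with reads left in each. The counts cover the whole gene, including exons outside the deleted part.

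Colon asked how loss of Rora bears on the receptors in cells at the inflamed site, and it is where replicate libraries exist. Cxcr3, Cxcr5 and Ltb4r1 fell in KO colon, Ccr1 and Ccr2 rose, and Cxcr4 and Cxcr6 did not pass the test. Thus 5 of 7 passed, 3 lower and 2 higher, against 39.5% of the 13101 genes tested, of which 19.6% were higher and 19.9% lower. Of the genes that passed, 49.6% were higher in KO colon on this scale, 77.3% with library totals as the scale and 88.9% with the scale set by T cell markers. The median log2 fold change of the 7 genes was -0.24, beside 0.01 over all genes tested. Tests here and below are edgeR's quasi-likelihood F-test with Benjamini-Hochberg adjustment over all genes of the comparison and a threshold of 0.05, written as edgeR adjusted p. In bulk RNA, fewer cells that carry a receptor and less receptor RNA per cell cannot be told apart.

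**Figure D1:**
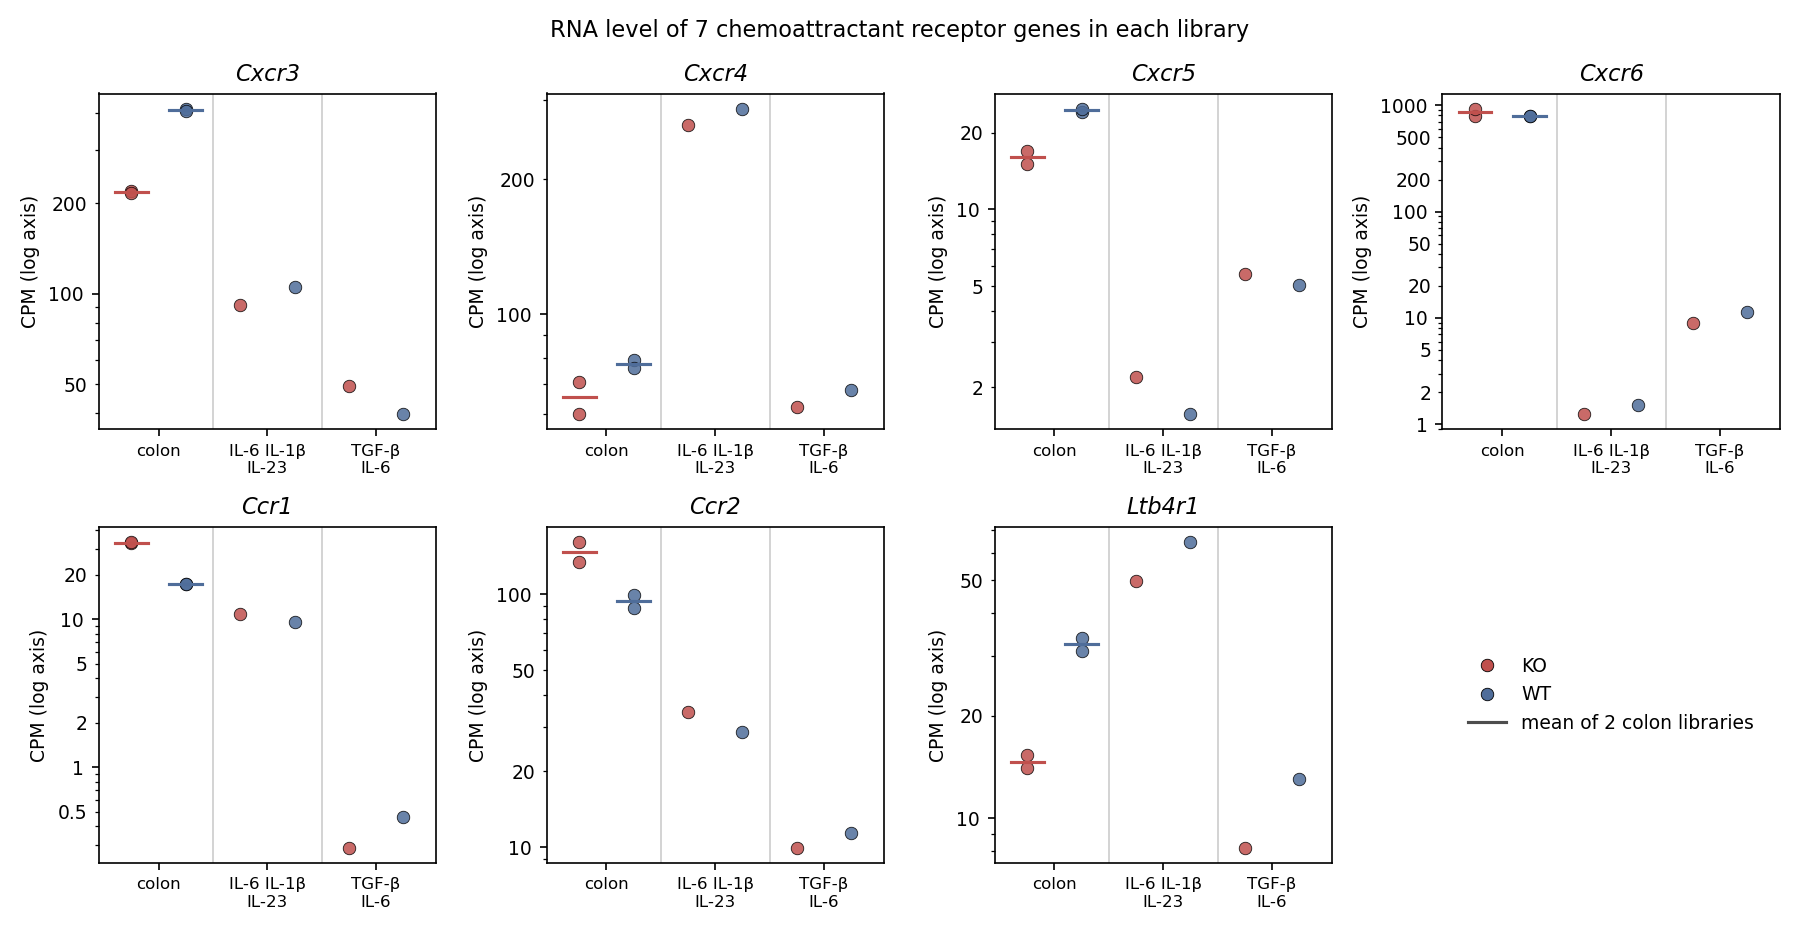
Level of each receptor gene in each library, in CPM on a log axis whose range differs between panels, with KO to the left of WT in colon, with IL-6+IL-1β+IL-23 and with TGF-β+IL-6. Points are libraries and lines the means of 2 colon libraries. In colon the KO points lie below the WT points for Cxcr3, Cxcr5 and Ltb4r1 and above them for Ccr1 and Ccr2, and Cxcr6 lies between 787 and 926 CPM in colon against at most 11.3 CPM in culture.

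Among the receptors that were lower, Ltb4r1 had 14.0 and 15.3 CPM in KO colon, against 31.1 and 33.9 CPM in WT colon. The KO pair lay below the WT pair with no overlap, and the difference exceeded the spread between libraries (log2 fold change -1.14 ± 0.12 SE, n = 2 each, edgeR adjusted p = 3.5e-05). Cxcr3 had 219.8 and 217 CPM in KO colon, against 413 and 406 CPM in WT colon. Its replicates were close to each other, and KO libraries held 53.4% of the mean WT level (log2 fold change -0.90 ± 0.08 SE, edgeR adjusted p = 8.0e-06). Cxcr5, the follicular receptor, had 17.0 and 15.1 CPM in KO colon, against 24.1 and 24.9 CPM in WT colon. Both KO values were again lower (log2 fold change -0.60 ± 0.12 SE, edgeR adjusted p = 0.0025). Scaled to the summed counts of conventional T cell markers instead, Cxcr5 stood at -0.28 with an edgeR adjusted p of 0.085 and no longer passed, while Cxcr3 and Ltb4r1 still did.

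Among the receptors that were higher, Ccr1 had 32.8 and 33.3 CPM in KO colon, against 17.5 and 17.4 CPM in WT colon. The replicates of each genotype nearly coincided, and KO colon held 189% of the WT mean (log2 fold change 0.93 ± 0.11 SE, edgeR adjusted p = 8.4e-05). Ccr2, the receptor for CCL2 and CCL7, had 134 and 160 CPM in KO colon, against 88.4 and 99.6 CPM in WT colon. Its KO libraries were further apart from each other but both above the WT libraries (log2 fold change 0.65 ± 0.10 SE, edgeR adjusted p = 5.0e-04).

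Macrophages and monocytes carry CCR1 and CCR2, and their marker list moved with these genes. Of its 12 markers 10 were tested in colon, 6 were higher in KO and none was lower. The summed level of the list was 87.5 to 87.8 CPM in KO colon, against 58.9 to 62.5 CPM in WT colon, and no marker of the list was at 0 in all 4 colon libraries. Lyz2, a lysozyme gene of myeloid cells, had 27.0 CPM in each KO library, against 17.9 and 17.0 CPM in the WT libraries. Csf1r, the receptor for macrophage colony-stimulating factor, had 3.75 and 4.06 CPM in KO colon, against 4.13 and 3.96 CPM in WT colon. Ccr1 amounted to 37.4% and 38.0% of the macrophage sum in KO colon, against 28.0% and 29.6% in WT colon, so it was higher per unit of these markers too. Ccr2 amounted to 152% and 183% of that sum in KO colon, against 142% and 169% in WT colon, and these ranges overlap. The part of these cells in the result was not tested.

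The labelled cell type was checked with 15 conventional T cell markers. Their sum was 10642 to 10846 CPM in KO colon, against 13228 to 13785 CPM in WT colon, and 11 of the 15 were lower in KO and 1 was higher. B and plasma cell markers summed to 2304 to 2506 CPM in KO colon, against 648.5 to 659 CPM in WT colon, with 6 of 7 tested higher and most of the sum from Igha, Igkc and Jchain. Ms4a1, which encodes the B cell antigen CD20, stayed at or below 1.0 CPM in each colon library, with 19 counts over both KO and 0 over both WT libraries. Cd79a of the same list was higher in KO (log2 fold change 2.36 ± 0.40 SE, edgeR adjusted p = 8.6e-04), and Cd79b did not pass (0.79 ± 0.35 SE). Other sums were likewise higher in KO colon: epithelium 147 to 148 CPM in KO against 55.1 to 57.8 CPM in WT (8 of 9 tested higher), and fibroblast 159 to 173 CPM in KO against 46.1 to 54.8 CPM in WT (8 of 10 higher). The NK and innate lymphoid list summed to 979 to 1086 CPM in KO colon, against 520 to 529.6 CPM in WT colon, with 3 of 7 higher and 2 lower. Ncr1 (log2 fold change 2.29), Gzma (1.99) and Klrk1 (1.46) were the higher ones, Prf1 (-0.77) and Eomes (-0.73) the lower ones. Per summed T cell marker, Cxcr3 was at 2.03% and 2.04% in KO colon, against 2.99% and 3.07% in WT colon, and Ltb4r1 at 0.129% and 0.144% in KO colon, against 0.225% and 0.256% in WT colon. Both therefore kept their direction on this scale. Follicular helper markers, the cells known for CXCR5, summed to 2263 to 2381 CPM in KO colon, against 2610 to 2703 CPM in WT colon, with 3 of 8 tested higher and 2 lower. The dendritic cell sum was 246 to 249 CPM in KO and 169 to 172 CPM in WT colon, with 3 of 5 tested markers higher and 2 lower. H2-Aa (log2 fold change 1.09), Itgax (0.91) and H2-Ab1 (0.64) were higher, Zbtb46 (-0.52) and Xcr1 (-0.29) lower. The endothelium sum was 116 to 119.8 CPM in KO and 113 to 118 CPM in WT colon and came mostly from Pecam1, which did not pass (log2 fold change -0.06), while 3 of 4 tested markers were higher in KO and none lower (Cdh5 2.74, Vwf 1.92, Plvap 1.30). Mast cell and basophil markers summed to 5.84 to 6.53 CPM in KO and 0.269 to 0.475 CPM in WT colon. Of 7, only Mcpt1, a mast cell protease, had enough counts to be tested, and it was higher in KO (121 counts over both KO libraries, 2 over both WT libraries, edgeR adjusted p = 8.0e-06). Neutrophil markers summed to 1.5 to 2.49 CPM in KO and 1.62 to 2.46 CPM in WT colon. The part of the other cell types was not tested.

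The remaining receptors did not pass in colon. Cxcr6 had 792 and 926 CPM in KO colon, against 787 and 796 CPM in WT colon, and the lower KO value lay between the WT values. Its log2 fold change was 0.12 ± 0.09 SE (edgeR adjusted p = 0.28), it was -0.0035 without the second KO library, and it passed at 0.45 when scaled to T cell markers (edgeR adjusted p = 0.0040). Cxcr4 had 70.7 and 60.0 CPM in KO colon, against 79.2 and 76.0 CPM in WT colon. Its log2 fold change was -0.24 ± 0.10 SE (edgeR adjusted p = 0.069). It turned to 0.08 when scaled to T cell markers (edgeR adjusted p = 0.51). It passed at -0.39 without the first KO library (edgeR adjusted p = 0.0063) and at -0.26 without a filter on low counts (edgeR adjusted p = 0.041). Library totals as the scale moved the median of all genes by 0.19 in log2, and Cxcr6 then passed at 0.32 (edgeR adjusted p = 0.014).

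The makeup of the 7 receptors differed between the genotypes. Per kilobase of exon, a rough scale for comparing genes, Cxcr6 came first, followed by Cxcr3 and then Cxcr4, in both genotypes in colon. The length used was that of all annotated exons merged, 6760 bases for Ccr2 and 1808 for Cxcr4, and expressed transcripts may be shorter. Before length scaling Cxcr6 and Cxcr3 also came first, but Ccr2 stood above Cxcr4 in each colon library. The mean level per kilobase was 445 CPM for Cxcr6 and 126 CPM for Cxcr3 in KO colon, against 410 CPM for Cxcr6 and 236 CPM for Cxcr3 in WT colon. Below them the order was Ccr2, Ccr1, Ltb4r1 and Cxcr5 in KO colon, and Ltb4r1, Ccr2, Cxcr5 and Ccr1 in WT colon. No neighbours in either order overlapped between their 2 libraries. Cxcr6 made up 65.9% and 69.6% of the summed level per kilobase in KO colon, against 55.2% and 55.6% in WT colon. For Cxcr3 the share was 20.4% and 18.2% in KO colon, against 32.3% and 31.6% in WT colon. Before length scaling, all 7 together summed to 1280 and 1426 CPM in KO colon, against 1439 and 1453 CPM in WT colon, so the sums lay much closer than several single genes.

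**Figure D2:**
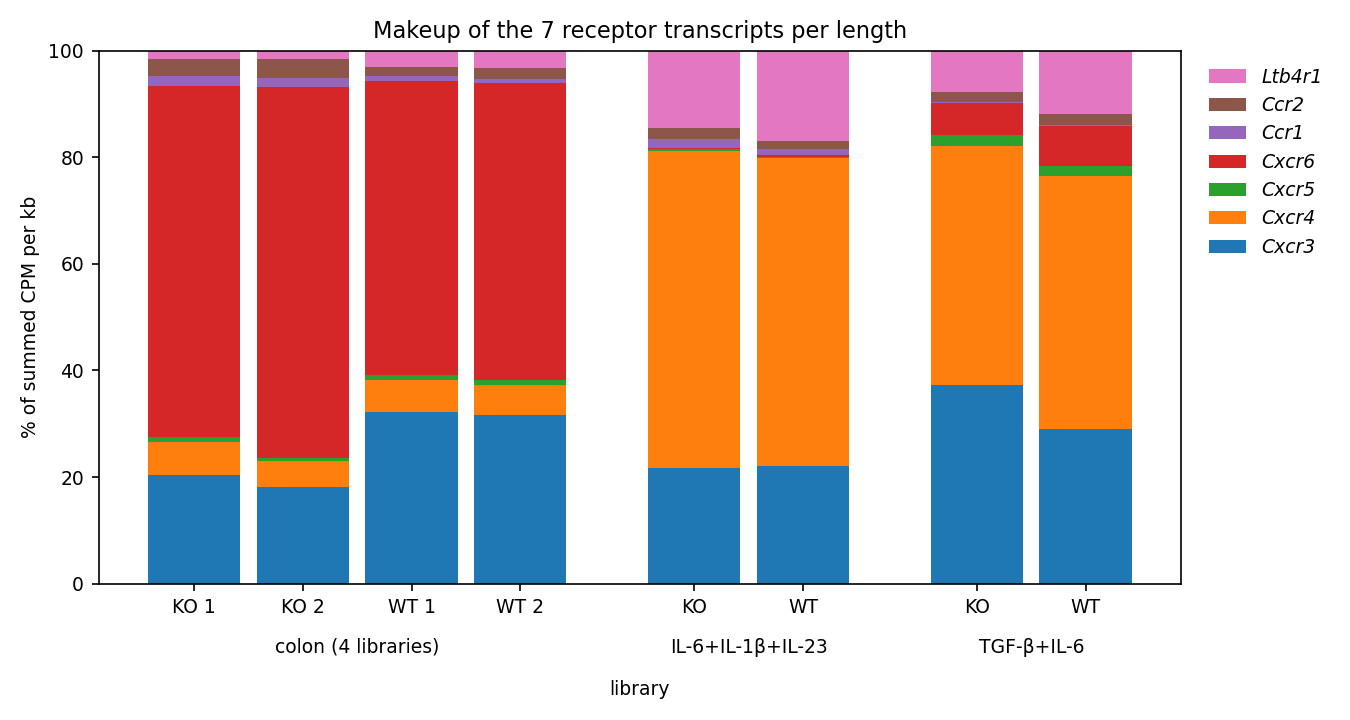
Share of each receptor gene in the summed level per kilobase of the 7 genes, in percent, for each library, with KO to the left of WT in colon, with IL-6+IL-1β+IL-23 and with TGF-β+IL-6. Cxcr6 takes 65.9% and 69.6% in KO colon against 55.2% and 55.6% in WT colon, and Cxcr4 takes the largest share in each cultured library.

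Around Cxcr6, Ccr1 and Ccr2, the genes of the chromosome 9 list did not move as 1 block. Of the 11 listed genes 10 were tested in KO against WT colon, 4 were higher, 2 lower and 4 did not pass. Next to the members, Lztfl1, a ciliary trafficking gene, rose by a log2 fold change of 1.13 ± 0.16 SE, and Ccr9, the gut-homing receptor for CCL25, by 0.91 ± 0.11 SE. Fyco1, a vesicle transport gene, had -0.40 ± 0.10 SE and Xcr1, the receptor for XCL1, -0.29 ± 0.11 SE, both lower. Ccr3, an eosinophil receptor, had 0.84 ± 0.44 SE and Ccrl2, listed with the cluster but lying apart from it, had 0.22 ± 0.15 SE, and neither passed. Ccr1l1 had too few counts to be tested. Of these 11 genes, Ccr9, Fyco1 and Lztfl1 share exon bases with other annotated transcripts, so their counts are uncertain.

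The wider receptor family was mixed in colon. Of 17 other chemokine receptors, 13 were tested, 4 were higher in KO and 2 lower, with a median log2 fold change of 0.17. Ccr6, the CCL20 receptor typical of Th17 cells, fell the most clearly (log2 fold change -1.88 ± 0.15 SE, edgeR adjusted p = 7.2e-06). Ccr10, the receptor for CCL27 and CCL28, had 37 counts over both KO libraries, against 3 over both WT libraries, which is 10.7-fold (95% interval from counting error alone, 3.39 to 54.3). Ackr1, a chemokine scavenger of vessels and red cells, had 45 counts in KO and 5 in WT colon. Of 12 other chemoattractant receptors 7 were tested, 4 higher and 2 lower. Gpr15, which leads T cells to the large intestine, rose by 2.5 ± 0.13 (SE) in log2 in KO colon (edgeR adjusted p = 2.7e-07), whereas the oxysterol receptor Gpr183 had -0.91 ± 0.08 SE (edgeR adjusted p = 8.8e-06) and the sphingosine phosphate receptor S1pr4 had -0.66 ± 0.08 SE (edgeR adjusted p = 7.0e-05).

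Of 14 ligands of the 7 receptors, 11 were tested in colon, 5 were higher in KO and 3 lower. Both CXCR3 ligands with enough counts rose while their receptor fell: Cxcl10 by a log2 fold change of 1.51 ± 0.11 SE (edgeR adjusted p = 2.4e-06) and Cxcl9 by 1.70 ± 0.23 SE (edgeR adjusted p = 1.8e-04). Cxcl10 had 55.2 and 61.8 CPM in KO colon, against 21.2 and 20.1 CPM in WT colon. The CCR1 ligands Ccl5 (log2 fold change -1.0 ± 0.08 SE) and Ccl3 (-1.0 ± 0.11 SE) fell while Ccr1 rose. Ccl7, a ligand of CCR1 and CCR2, rose by 1.12 ± 0.29 SE (edgeR adjusted p = 0.0091), and the CCR2 ligand Ccl2 by 0.95 ± 0.20 SE (edgeR adjusted p = 0.0032). The CXCR4 ligand Cxcl12 rose the most of the ligands tested, by 2.18 ± 0.32 SE (edgeR adjusted p = 3.3e-04), while Cxcr4 did not pass. Ccl7, Ccl2 and Cxcl12 are named here after their values were seen. Ccl5 was abundant, with 377 and 404 CPM in KO colon, against 744 and 820.3 CPM in WT colon. Of 4 genes for leukotriene B4 synthesis only Lta4h, its last enzyme, had enough counts in colon, and it did not pass (-0.17 ± 0.08 SE). Among 19 genes of receptor signalling 5 were higher and 6 lower in KO colon. They include Gnai2, the main Gi α subunit of lymphocytes (-0.53 ± 0.08 SE), and Pik3cg, a lipid kinase downstream of it (0.99 ± 0.12 SE). The Gi α genes Gnai1 (4.67 ± 0.35 SE) and Gnai3 (0.32 ± 0.08 SE) were higher. Gnai1 had 181 counts over both KO libraries, against 6 over both WT libraries. Among 14 desensitisation genes, of which 12 were tested, 6 were lower and 2 higher, with Grk6, a receptor kinase, at -0.65 ± 0.08 SE and Rgs2, which quenches G protein signals, at 0.70 ± 0.09 SE.

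Transcription factors linked to these receptors were taken as a further list. Of 12, 11 were tested in KO against WT colon, 5 were lower and 2 higher, with a median log2 fold change of -0.23. Batf, an AP-1 family factor of effector T cells, had -1.16 ± 0.08 SE (edgeR adjusted p = 2.0e-06), Tox2, a follicular helper factor, -0.99 ± 0.12 SE (edgeR adjusted p = 7.1e-05), Eomes, a T-box factor, -0.73 ± 0.12 SE (edgeR adjusted p = 6.6e-04) and Runx3, a RUNX factor of effector cells, -0.47 ± 0.09 SE (edgeR adjusted p = 0.0016). All 4 were lower. Tbx21, the T-box factor that drives Cxcr3 in Th1 cells, was among the other genes that fell (log2 fold change -0.34 ± 0.08 SE, edgeR adjusted p = 0.0051) and is named here after its value was seen. In culture Tbx21 was higher in KO without passing (0.59 ± 0.13 SE, edgeR adjusted p = 0.63). Its effect in colon minus that in culture was -0.93 ± 0.15 SE (edgeR adjusted p = 0.0010). Scaling to T cell markers, which moved Cxcr5 in colon from -0.60 to -0.28, is not reported for these factors.

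Culture asked the same of the receptors in cells polarized outside the body. None of the 7 genes passed for KO against WT with the mix as a covariate, in a comparison in which 0.0286% of 13983 genes, 4 in number, passed and 500 had an unadjusted p under 0.05. Of the 7, only Ltb4r1 had an unadjusted p under 0.05, and DESeq2, run on the same counts, also called none of them. Each mix held 1 KO and 1 WT library, so within a mix there is no test and the 95% intervals below cover counting error only. Genes at 2-fold or more were 0.265% of those with 5 CPM in either library with IL-23, IL-1β and IL-6, and 0.234% with TGF-β and IL-6, and none of the 7 receptors was among them.

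Ltb4r1 was lower in the KO library of both mixes. It had 49.6 CPM in KO and 64.6 CPM in WT cells with IL-23, IL-1β and IL-6, a ratio of 0.768 (interval 0.700 to 0.841). With TGF-β and IL-6 it had 8.21 CPM in KO and 13.0 CPM in WT cells, a ratio of 0.631 (interval 0.508 to 0.781). Over both mixes its log2 fold change was -0.47 ± 0.10 SE, the smallest unadjusted p of the 7 genes at 0.0018, yet the edgeR adjusted p was 0.63.

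Cxcr3 went opposite ways. With IL-23, IL-1β and IL-6 it had 91.6 CPM in KO and 105 CPM in WT cells, a ratio of 0.870 (interval 0.812 to 0.932). With TGF-β and IL-6 it had 49.4 CPM in KO and 39.7 CPM in WT cells, a ratio of 1.24 (interval 1.12 to 1.38). Its log2 fold change over both mixes was 0.03 ± 0.11 SE, and with 1 library per group the difference between mixes was not tested.

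The other receptors came out as follows. Cxcr4 had 263 CPM in KO and 287 CPM in WT cells with IL-23, IL-1β and IL-6, and 62.2 CPM in KO and 67.7 CPM in WT cells with TGF-β and IL-6, ratios of 0.918 and 0.920. Ccr2 had 34.2 CPM in KO and 28.5 CPM in WT cells with the IL-23 mix (ratio 1.20, interval 1.06 to 1.36), and 9.99 CPM in KO and 11.4 CPM in WT cells with the TGF-β mix (ratio 0.877, interval 0.711 to 1.08). Ccr1 had 10.9 CPM in KO and 9.54 CPM in WT cells with the IL-23 mix, where the interval of the ratio included 1. Cxcr5 and Cxcr6 stayed under 12 CPM in each cultured library. Cxcr6 had 8.90 CPM in KO and 11.3 CPM in WT cells with the TGF-β mix (ratio 0.785, interval 0.632 to 0.974), and Cxcr5 had 5.57 CPM in KO and 5.03 CPM in WT cells there, with an interval that included 1.

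**Figure D3:**
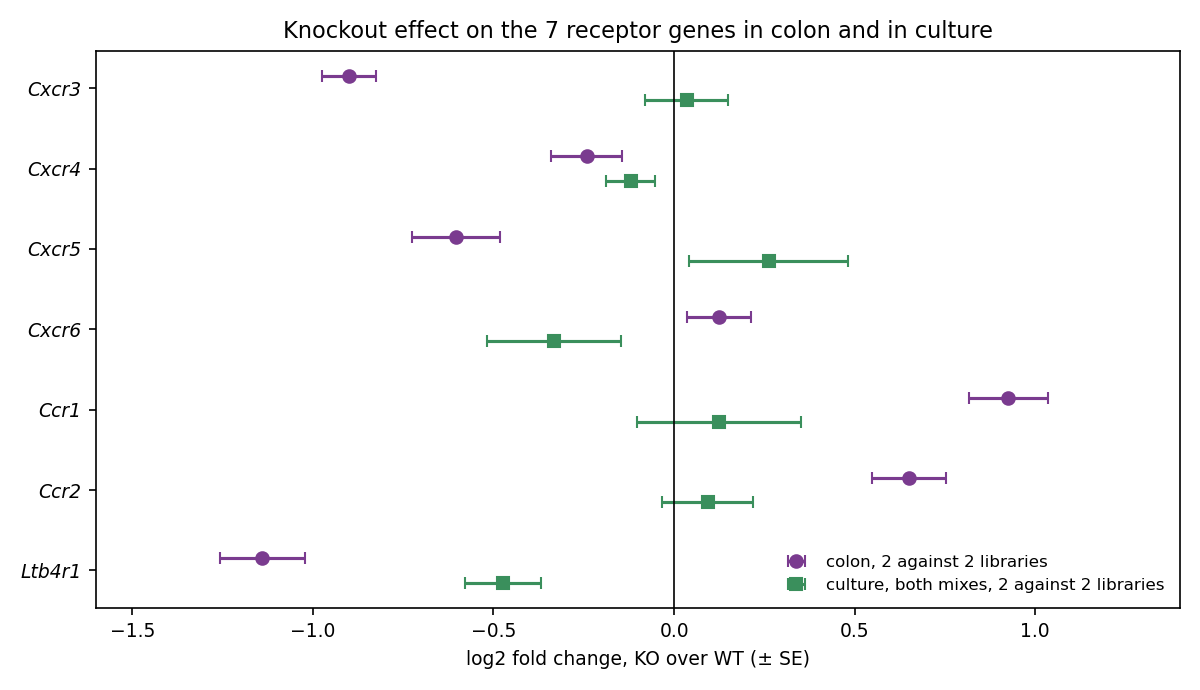
Log2 fold change of KO over WT for each receptor gene, with its standard error, in colon (2 KO and 2 WT libraries) and in culture (2 KO and 2 WT libraries, 1 of each per mix). In colon Ltb4r1 stands at -1.14 and Ccr1 at 0.93, while the culture values lie between -0.47 and 0.26.

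Whether the genotype effect itself differed between colon and culture was tested in 1 fit of all 8 libraries. The difference passed for 5 of the 7 genes, 2 in the higher and 3 in the lower direction, against 17.3% of 14957 genes, 7.71% higher and 9.56% lower. Of the genes that passed, 44.6% were in the higher direction, and 80.1% with library totals as the scale. For Cxcr3 the effect in colon minus that in culture was -0.94 ± 0.14 SE (edgeR adjusted p = 6.3e-04), for Cxcr5 -0.86 ± 0.24 SE (edgeR adjusted p = 0.021) and for Ltb4r1 -0.66 ± 0.16 SE (edgeR adjusted p = 0.013). For Ccr1 it was 0.79 ± 0.22 SE (edgeR adjusted p = 0.026) and for Ccr2 0.55 ± 0.17 SE (edgeR adjusted p = 0.037). For Cxcr6 (0.45 ± 0.19 SE, edgeR adjusted p = 0.11) and Cxcr4 (-0.13 ± 0.12 SE, edgeR adjusted p = 0.54) the difference did not pass. Rora itself passed (0.43 ± 0.12 SE, edgeR adjusted p = 0.027), so its RNA was lowered less in colon than in culture. Its log2 fold change, KO over WT, was -0.94 in colon and -1.38 in culture. Without the second KO colon library, Cxcr5 (edgeR adjusted p = 0.062), Ccr1 (0.060) and Ccr2 (0.13) no longer passed, and Ccr2 did not without the first WT colon library (0.091). DESeq2 did not call Cxcr5 (adjusted p = 0.074) or Ccr1 (adjusted p = 0.11), and with library totals as the scale Cxcr5 and Ltb4r1 did not pass (edgeR adjusted p = 0.063 and 0.061) and Cxcr6 did (0.025).

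The cytokine mixes compare Th17 cells made with IL-23 and IL-1β, a state known for its pathogenic potential, with those made with TGF-β. All 7 receptors passed, 5 higher and 2 lower with IL-23, IL-1β and IL-6. In this comparison 69.8% of 13983 genes passed, 35.8% higher and 34% lower. No culture was repeated within a genotype and mix. The p-values for the mix therefore rest on how far KO and WT libraries differed in the mix effect, not on spread between replicate cultures. The median log2 fold change of the 7 was 1.55, beside 0.02 over all genes tested. Ccr1, the myeloid-type chemokine receptor, changed most: 184 counts in KO and 158 in WT cells with the IL-23 mix, against 5 in KO and 8 in WT cells with the TGF-β mix. The ratio was 38.1 in KO cells (95% counting interval 16.0 to 118.8) and 20.6 in WT cells (interval 10.2 to 48.6), and the intervals of the genotypes overlap. Over both genotypes its log2 fold change was 4.74 ± 0.28 SE (edgeR adjusted p = 1.9e-06).

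Ltb4r1 had 49.6 CPM in KO and 64.6 CPM in WT cells with the IL-23 mix, against 8.21 CPM in KO and 13.0 CPM in WT cells with the TGF-β mix. Both genotypes rose by a similar factor (log2 fold change 2.44 ± 0.11 SE, edgeR adjusted p = 4.3e-07). Cxcr4 rose 4.23-fold in KO and 4.24-fold in WT cells (log2 fold change 2.08 ± 0.07 SE, edgeR adjusted p = 1.3e-07), nearly the same in both. Ccr2 was 3.42-fold higher in KO (interval 2.89 to 4.08) and 2.5-fold higher in WT cells (interval 2.11 to 2.97) with the IL-23 mix (log2 fold change 1.55 ± 0.13 SE, edgeR adjusted p = 1.2e-05). For Cxcr3 the factor was 1.86 in KO (interval 1.71 to 2.02) and 2.65 in WT cells (interval 2.43 to 2.90), and these intervals do not overlap (log2 fold change 1.14 ± 0.12 SE, edgeR adjusted p = 3.8e-05). The KO and WT rises of Cxcr3 rest on 1 library each, so their difference was not tested.

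Cxcr6 and Cxcr5 went the other way. Cxcr6 had 1.25 CPM in KO and 1.51 CPM in WT cells with the IL-23 mix, against 8.90 CPM in KO and 11.3 CPM in WT cells with the TGF-β mix (log2 fold change -2.87 ± 0.20 SE, edgeR adjusted p = 4.6e-06). Cxcr6, most abundant in colon, was thus near the detection floor in the IL-23 mix, with 21 counts in KO and 25 in WT cells. Cxcr5 was near it too, with 37 counts in KO and 26 in WT cells. Cxcr5 had 2.20 CPM in KO and 1.57 CPM in WT cells with the IL-23 mix, against 5.57 CPM in KO and 5.03 CPM in WT cells with the TGF-β mix (log2 fold change -1.49 ± 0.23 SE, edgeR adjusted p = 4.2e-04).

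**Figure D4:**
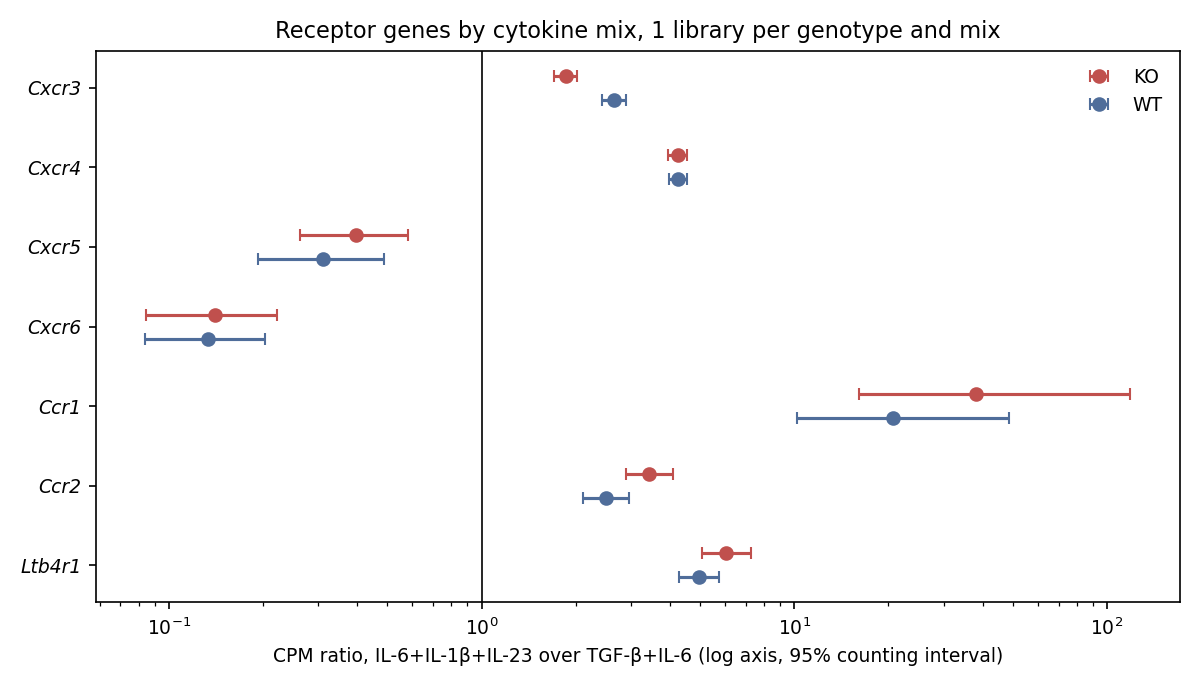
Ratio of the level with IL-6+IL-1β+IL-23 to that with TGF-β+IL-6 for each receptor gene, on a log axis, for KO (upper point) and WT cells, each from 1 library per mix, with 95% counting intervals. Cxcr5 and Cxcr6 lie below 1 in both genotypes and the other genes above 1, with Ccr1 at 38.1 in KO and 20.6 in WT cells.

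Some marker lists of other cells also moved with the mix. The macrophage list summed to 30.6 CPM in KO and 32.5 CPM in WT cells with the IL-23 mix, against 2.53 CPM in KO and 2.14 CPM in WT cells with the TGF-β mix. Cd68, a lysosomal protein, gave 25 CPM of the KO and 28.0 CPM of the WT sum with the IL-23 mix, and Mrc1, a mannose receptor, most of the rest. The defining genes Lyz2, C1qa, C1qb, C1qc and Fcgr1 were at 0 counts in all 4 cultured libraries. Ly6g, the usual neutrophil antigen, had 87.2 CPM in KO and 73.0 CPM in WT cells with the IL-23 mix, with S100a8 and S100a9 at 0 in every cultured library. Lum, an extracellular matrix gene of the fibroblast list, had 353 CPM in KO and 387 CPM in WT cells with the IL-23 mix, against 1.44 CPM in KO and 1.21 CPM in WT cells with the TGF-β mix. All 4 tested markers of that list were higher with the IL-23 mix, Dcn by a log2 fold change of 7.77 ± 0.28 SE. All 3 tested NK and innate lymphoid markers were higher too. Of 5 tested dendritic cell markers, 2 were higher and 1 lower, with Flt3 at 5.77 and H2-Aa at -2.68. The part of other cell types in the mix effects was not tested. Conventional T cell markers summed to 6767 to 7158 CPM over the 4 cultured libraries.

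Related genes moved with the mix as well. Of 17 other chemokine receptors 10 were tested, 6 were higher and 2 lower with the IL-23 mix. Cxcr2, the CXCL1 and CXCL5 receptor best known from neutrophils, had 5.89 CPM in KO and 5.80 CPM in WT cells with the IL-23 mix, against 1 count in the KO and 0 in the WT library with the TGF-β mix. Its neighbour in family, Cxcr1, rose by a log2 fold change of 4.53 ± 0.21 SE (edgeR adjusted p = 5.1e-07). By contrast Ccr4, a receptor for CCL17 and CCL22, fell by 1.57 on the log2 scale (edgeR adjusted p = 5.2e-07). Runx3 rose by 1.77 ± 0.07 SE (edgeR adjusted p = 3.1e-07), among 5 higher and 5 lower of 11 tested transcription factors. In receptor signalling 12 of 18 tested genes were higher and 3 lower, with Gng2, a G protein γ subunit, at 2.31 ± 0.08 SE and Pik3cg at 2.24 ± 0.09 SE.

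Colon cells were also set against cultured cells, a contrast in which tissue, transfer and culture cannot be told apart and the files were made with different annotations. Here 6 of the 7 genes passed, 5 higher and 1 lower in colon, against 81.5% of 14957 genes, 40.9% higher and 40.5% lower. Cxcr6 had 787 to 926 CPM over the 4 colon libraries, against 1.25 to 11.3 CPM over the 4 cultured ones (log2 fold change 7.79 ± 0.09 SE, edgeR adjusted p = 7.9e-18). Ccr1 (log2 fold change 3.60 ± 0.13 SE), Ccr2 (2.68 ± 0.09 SE), Cxcr5 (2.65 ± 0.12 SE) and Cxcr3 (2.17 ± 0.07 SE) were higher in colon too. Cxcr4 was lower in colon (log2 fold change -0.91 ± 0.06 SE, edgeR adjusted p = 1.8e-09), but its colon values of 60.0 to 79.2 CPM overlapped those with the TGF-β mix, and only the IL-23 mix stood apart. Ltb4r1 did not pass (-0.15 ± 0.08 SE, edgeR adjusted p = 0.10), since its colon values of 14.0 to 33.9 CPM lay between those of the mixes. With library totals as the scale, which moves the median of all genes by -0.28, it passed at -0.43 (edgeR adjusted p = 2.5e-04). In culture the order per kilobase began with Cxcr4, Cxcr3 and Ltb4r1 in each of the 4 libraries.

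The genes whose profile was nearest to each receptor were sought among 9252 genes with 5 CPM or more on average, as the smallest root mean square difference of centred log2 CPM over the 6 conditions. These are descriptions over 6 points that share libraries. Nearest to Cxcr3 were Use1 (0.14), Bcl3 (0.15) and Pttg1 (0.15), and to Cxcr4 Chst12 (0.10), Arrb1 (0.12) and Bsg (0.14). To Cxcr5 they were Map2k3 (0.15), Ppp1r16b (0.16) and Ctsw (0.16), and to Ccr2 St3gal6 (0.18), Stat4 (0.23) and Tmem154 (0.23). Ltb4r1 was nearest to Ddit4 (0.24), H2-T-ps (0.27) and Abhd4 (0.27), and Ccr1 to Samd9l (0.29), Xaf1 (0.43) and Gzmb (0.54). Cxcr6 had no close match, with Dtx4 (0.61), Cxcl2 (0.64) and H2-Aa (0.65) nearest. Among the 7 receptors themselves, Cxcr4 and Ltb4r1 were closest to each other (0.50), and Cxcr3 and Ccr2 next (0.56).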

How the data were processed

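The deposited files hold raw read counts per gene for 1 library each, not normalized, per the file headers and the whole values. Per the submitters' processing notes the authors used mm10 with Bowtie2, featureCounts, Trim Galore, DESeq2 and edgeR; roles, versions and strand setting are not given in the sources used here. Colon files list 54446 Ensembl entries, of which 54409 are in GENCODE M21, and culture files 55341 symbols. They were joined by symbol for 54185 genes. The 27 colon and 26 culture symbols that had become dates were left out of the join. They held 0.174% to 0.269% of a library's counts.

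Counts were analysed in R 4.3.3 with edgeR 4.0.16 (filterByExpr, TMM, quasi-likelihood F-test, Benjamini-Hochberg threshold 0.05): colon alone (2 residual degrees of freedom), culture with terms for mix and genotype (1), and all 8 libraries with a genotype effect in colon and another in culture (3). Ratios of 2 libraries have exact 95% intervals that cover counting error only. Replicates were distinct (mean chi-square per gene 5.03 in KO and 6.85 in WT colon). Alternatives were DESeq2 1.42.0 and its size factors, library totals, no filter, leaving out each colon library, a replicate block, and, added after seeing the data, scaling to T cell markers. The methods were tested on simulated data.

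The members, the 19 lists beside them and the rules were chosen with earlier results of these data known. Named are all 7 members, Rora, up to 4 genes per list and comparison by smallest p, the chromosome 9 list genes, and 3 genes per member by likeness. Some genes that this rule names are not reported here. Single markers are named where a list's sum rests on them.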

Additional observations from a re-analysis of the deposited data

Results flagged for a closer look

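The genotype effect differed between colon and culture for 5 receptors, by the test of the difference itself in the fit of all 8 libraries. The effect in colon minus that in culture, in log2, was -0.94 for Cxcr3, -0.86 for Cxcr5, -0.66 for Ltb4r1, 0.79 for Ccr1 and 0.55 for Ccr2. Only for Cxcr3 did the difference pass under all 8 alternatives run, and not for Cxcr5, Ltb4r1, Ccr1 or Ccr2. Ltb4r1 was lower in KO in both settings, at -1.14 in colon and, without passing, at -0.47 in culture. The KO over WT ratio of Cxcr3 was 1.24 with TGF-β and IL-6, while the KO library was lower than the WT library with IL-23, IL-1β and IL-6. That difference between the mixes was not tested, as each group had 1 library. No group had the 4 samples that a search for outlying libraries needs.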

How the results depend on the processing

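In colon, Cxcr3, Ccr1, Ccr2 and Ltb4r1 kept their direction and passed under all 10 alternatives run. Direction changed for Cxcr6 in colon without the second KO library (-0.0035, with a range of -0.0035 to 0.21 over the libraries left out), for Cxcr4 in colon scaled to T cell markers (0.081), for Ccr1 in culture with DESeq2 (-0.031), and for Cxcr4 in colon minus culture with library totals (0.066). None of these passed under either setting. Genes called for KO in culture, 4 in the analysis reported, were 9 with library totals, 9 with DESeq2 size factors, 0 without a filter, 7 with the DESeq2 test and 15 in the fit of all 8 libraries. For the effect in colon minus culture, DESeq2 called 3 members, and leaving out a colon library gave 2 to 6 members and 1680 to 2441 genes, the lowest of both without the second KO library and the highest without the first, where Cxcr6 passed too (adjusted p = 0.041). The cause of these changes was not tested.

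The replicate block called 6230 genes and 6 members in colon, Cxcr4 (-0.25, edgeR adjusted p = 0.013) being added. Deviations of libraries with the same number had a correlation of 0.115 across genes, over 2 pairs only, and no label says what a number marks. Colon had 2 libraries per genotype and each cultured group 1, so small differences could not be told from the spread, and the 5 and 8 counts of Ccr1 with TGF-β and IL-6 leave its ratio wide.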
